A study of Mus musculus with 96 samples.

Results

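Differentiated C2C12 myotubes treated with oligomycin together with piericidin were compared with myotubes treated with oligomycin alone. The members are the 3 samples of each of these groups, chosen by their labelled cell state, transgene and treatment, and they are 6 of the 96 samples in the series. C2C12 is a mouse myoblast line that stops dividing and fuses into multinucleate myotubes when serum is withdrawn. All the cells used here were untransduced, had spent 4 days in medium with 2% dialyzed horse serum, and were then treated for 10 hr in medium without pyruvate. The doses were 1 µM oligomycin and 0.5 µM piericidin. Vehicle (DMSO) samples, samples with 0.5 µM piericidin alone, and samples with 1 µM oligomycin plus 0.5 µM BAM15 are set beside them, with 3 samples in each group. The model that estimated the spread also held 4 further groups of 3 untransduced myotube samples, with antimycin (an inhibitor of complex III), with BAM15 alone, and at 5% oxygen with DMSO or with oligomycin. The sources used here do not tie the replicates to separate cultures, so the p-values measure the spread between these samples, which may be technical.

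ATP synthase lets protons back into the mitochondrial matrix and uses their flow to make ATP. Oligomycin blocks it, so protons that the respiratory chain keeps pumping accumulate outside the inner membrane and the membrane potential rises. Piericidin blocks complex I, the entry point of electrons from NADH, and BAM15 is an uncoupler that lets protons leak back. The integrated stress response (ISR) is a common programme for several stresses. Kinases phosphorylate the translation factor eIF2α, general protein synthesis slows, and the transcription factor ATF4 is translated and switches on genes for amino acid supply. The comparison asks whether blocking complex I changes the ISR and other transcripts in myotubes whose ATP synthase is already blocked.

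The C/EBP-ATF response element, to which ATF4 binds with a C/EBP partner, was searched in the promoters because the ISR genes below move together. The letters TGATGNAAT, on either strand, occurred in 317 of 32851 RefSeq promoters (0.965%) of GRCm38.p6, in a window from 250 bases before to 50 after the start site. Of the 15 genes of the ISR list, 14 had a promoter in the table and 2 held these letters, Fgf21 and Nupr1. Both windows are on the minus strand and are written 5′ to 3′, with the match, which reads as the reverse complement of the motif, in capitals. The first capital lies 140 bases before the start site of Fgf21 (chr7:45615576-45615675) and 111 bases before that of Nupr1 (chr7:126625527-126625626). A match is a description of these letters and not a site shown to be bound.
Fgf21 promoter: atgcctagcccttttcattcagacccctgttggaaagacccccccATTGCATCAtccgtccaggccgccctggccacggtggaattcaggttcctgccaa
Nupr1 promoter: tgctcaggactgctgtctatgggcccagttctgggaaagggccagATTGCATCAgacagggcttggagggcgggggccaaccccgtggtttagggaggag
Among the genes of the other lists used below, Gars, Aars and Iars, which encode tRNA synthetases, and Pycr1, an enzyme of proline synthesis, held the same letters. In all, 278 of 360 listed genes had a promoter in the table.

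The 6 libraries held between 9931315 and 11940850 counts, and the 27 libraries of untransduced myotubes that shared one model held between 6458295 and 13759512. No library held counts of the study's transgenes. Summed over 10 markers of myotubes, expression was 13900 to 14000 CPM (counts scaled to the size of the library) with oligomycin and 13500 to 13800 with oligomycin and piericidin, with all 10 markers detected in every library. The 8 markers of undifferentiated cells summed to 1130 to 1220 CPM with oligomycin and 1070 to 1090 with both, and the 8 markers of dividing cells to 240 to 251 and 249 to 260 CPM. In these 6 libraries markers of adipocytes summed to at most 0.525 CPM and markers of osteoblasts to at most 2.05 CPM, and with oligomycin and BAM15 to at most 0.908 and 3.03 CPM. The labels give each library a code of a letter and a number without saying what it stands for. If it is read as a plate position, 2 of 3 oligomycin libraries and 0 of 3 with piericidin added stood at the edge, and the part of this in the results was tested only as the covariate for outer or inner well in the closing section. In bulk RNA, fewer cells of a type and less RNA per cell cannot be told apart, and this holds for every level below.

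Adding piericidin to oligomycin changed 2607 of 12491 genes tested (20.9%) at an adjusted p under 0.05 with the quasi-likelihood test of edgeR. Expression was lower at 1550 genes (12.4%) and higher at 1057 (8.46%), with 164 genes at least 2-fold lower and 120 at least 2-fold higher. These shares of all genes tested are the background for each count in a gene list for this comparison. The median absolute log2 fold change of the genes called was 0.434, and the median log2 fold change of all genes tested was 0.0154. For comparison, oligomycin alone changed 4164 genes against DMSO (33.3%; 2117 higher, 16.9%, and 2047 lower, 16.4%). Piericidin alone changed 1123 genes (8.99%; 519 higher, 4.15%, and 604 lower, 4.84%). Myotubes with both inhibitors differed from DMSO at 1599 genes (12.8%; 728 higher, 5.83%, and 871 lower, 6.97%). These comparisons share samples, so their values are given side by side.

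In a principal component analysis of the 12 samples with DMSO, piericidin, oligomycin or both, PC1 held 49.8% of the variance and PC2 13.6%. With the mean of DMSO set to 0% and that of oligomycin to 100% along PC1, the 3 samples with both inhibitors lay at 26.8%, 32.8% and 37.3%, a mean of 32.3% ± 5.27 (SD, n = 3). Piericidin alone lay at 11.8% ± 2.75. The oligomycin samples and those with piericidin added did not overlap on PC1, and without the first oligomycin replicate the mean of the latter moved to 38.0%. On PC2 the samples with both inhibitors had the lowest mean score, at -5.74 ± 1.49, near piericidin alone at -3.43 ± 0.946 and apart from DMSO at 7.0 ± 0.316. No test was made of these scores, since 3 samples against 3 cannot give an exact permutation p under 0.1.

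**Figure D1:**
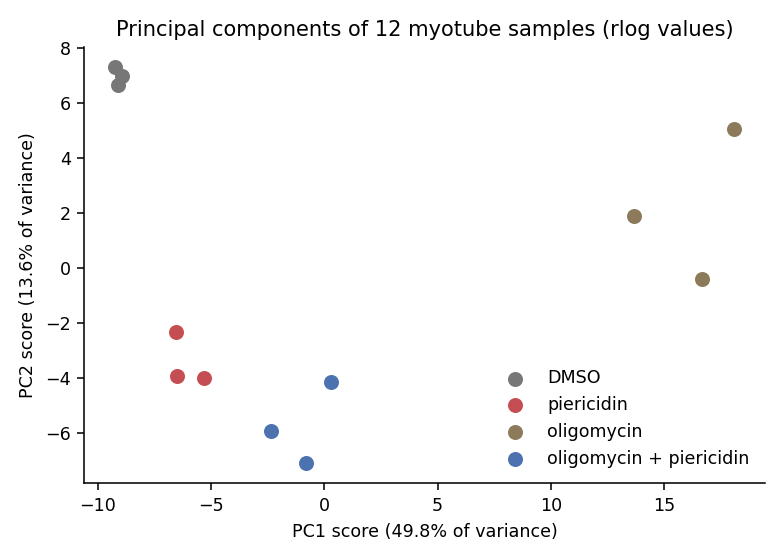
PC1 scores (x axis, 49.8% of variance) and PC2 scores (y axis, 13.6% of variance) of 12 myotube samples, from log-transformed counts; each point is 1 sample, coloured by treatment. The samples with both inhibitors lie between DMSO and oligomycin on PC1 and lowest on average on PC2.

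Transcripts of the ISR were strongly lowered by piericidin. Of 15 genes in the list, 14 were measured and 11 fell, none rose, and the groups did not overlap at 11. Of all genes tested, 34.1% had groups that did not overlap, 18.7% with lower and 15.3% with higher values when piericidin was added. The median log2 fold change of the list was -1.1. With oligomycin alone, 13 of the 14 rose against DMSO (median 2.27), and with both inhibitors 13 were still above DMSO (median 1.04). Cebpb, a C/EBP partner of ATF4, was left untested at 137 counts over 27 libraries.

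Atf4 (ENSMUSG00000042406; chr15:80255184-80257541), which encodes the master factor of the response, was at 652, 625 and 673 normalised CPM with oligomycin and at 330, 303 and 325 with piericidin added. All libraries with both inhibitors lay below those with oligomycin and above DMSO, where the mean was 202 ± 2.81 CPM (SD, n = 3). Its log2 fold change was -1.02 (SE 0.046, adjusted p = 1.33e-14, edgeR), a 2.03-fold lower level. Part of the rise remained. Taking the rise from DMSO to oligomycin as 100%, 26.3% ± 3.22 (SD, n = 3) was left with both inhibitors, and the log2 fold change against DMSO was 0.66 (adjusted p = 1.71e-10, edgeR). For PC1 above and for each share left, the means of DMSO and oligomycin were taken as fixed. The SD therefore holds only the spread of the 3 libraries placed on that scale.

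Ddit3 (chr10:127290774-127296288), the gene of CHOP, a factor induced downstream of ATF4, was at 318, 318 and 314 CPM with oligomycin and at 54.0, 48.4 and 58.0 with both. This was a 5.92-fold lower level (log2 fold change -2.57, SE 0.075, adjusted p = 7.23e-18, edgeR), with 11.6% ± 1.62 of the rise left. Atf3 (chr1:191170296-191218039), a stress-induced factor of the same family as ATF4, changed most within the list. It was at 185, 176 and 183 CPM with oligomycin, 49.6-fold above DMSO, and at 14.1, 18.3 and 18.2 CPM with both. The log2 fold change was -3.43 (SE 0.13, adjusted p = 1.91e-15, edgeR), a 10.8-fold lower level, and 7.44% ± 1.35 of the rise was left. Nupr1, whose promoter holds the letters searched, encodes a small stress-induced nuclear protein. It was at 177, 174 and 170 CPM with oligomycin and at 95.2, 98.0 and 89.2 with both (log2 fold change -0.88, SE 0.075, adjusted p = 2.74e-09, edgeR), and kept 30.7% ± 3.90 of its rise. Atf5 and Cebpg, which encode bZIP factors of this group, did not pass the test, at log2 fold changes of 0.20 (adjusted p = 0.552) and -0.25 (adjusted p = 0.265, edgeR).

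Genes that restrain the response or growth fell too, at 5 of 6 measured. Ppp1r15a (GADD34), which directs the dephosphorylation of eIF2α, was at 264, 259 and 255 CPM with oligomycin and at 48.4, 47.0 and 44.8 with both, 5.54-fold lower (log2 fold change -2.47, SE 0.070, adjusted p = 7.23e-18, edgeR). DMSO libraries were at 27.6 ± 1.70 CPM, and 8.27% ± 0.787 of the rise was left. Trib3, a pseudokinase that inhibits ATF4 and AKT, was at 278, 280 and 275 CPM and fell to 65.1, 61.3 and 63.6, 4.38-fold lower (log2 fold change -2.13, SE 0.078, adjusted p = 5.55e-16, edgeR). Chac1, which degrades glutathione, was at 114 ± 4.47 CPM with oligomycin and 63.0 ± 4.13 with both, and 42.9% ± 4.62 of its rise was left. Among the 11 genes of the list that fell, the share left was lowest for Atf3 and highest for Chac1, with no test made between genes. The groups did not overlap for the remaining genes of this set except Ddit4. Sesn2, a brake on mTORC1, was at 57.1 ± 2.07 and 25.3 ± 2.31 CPM (log2 fold change -1.17), and Eif4ebp1, a repressor of cap-dependent translation, at 303 ± 10.2 and 188 ± 8.22 CPM (log2 fold change -0.69), and both passed the test. Ddit4 (REDD1), another brake on mTORC1, was low in all these groups, at 4.29 ± 0.622 and 3.56 ± 1.03 CPM, and did not pass it (log2 fold change -0.27, adjusted p = 0.521, edgeR).

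Both secreted factors of the response, often called mitokines, fell. Gdf15 (chr8:70629393-70632456), a circulating factor that lowers food intake, was at 44.6, 44.2 and 45.9 CPM with oligomycin and at 10.2, 11.3 and 11.2 with both (log2 fold change -2.04, SE 0.16, adjusted p = 9.32e-10, edgeR). It was at 1.88 ± 0.272 CPM with DMSO and 4.86 ± 1.41 with piericidin alone. Fgf21, a metabolic hormone whose promoter is shown above, was at 173, 172 and 179 CPM and fell to 59.2, 62.5 and 61.0 (log2 fold change -1.52, SE 0.079, adjusted p = 3.35e-13, edgeR). For both genes, the libraries with both inhibitors lay wholly between those with piericidin alone and those with oligomycin alone, and the part of the rise left was 21% ± 1.35 for Gdf15 and 22.0% ± 1.13 for Fgf21. None of the 4 genes for the eIF2α kinases passed the test, with log2 fold changes of 0.03 for Eif2ak1 (HRI), 0.12 for Eif2ak2 (PKR), 0.22 for Eif2ak3 (PERK) and -0.12 for Eif2ak4 (GCN2).

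**Figure D2:**
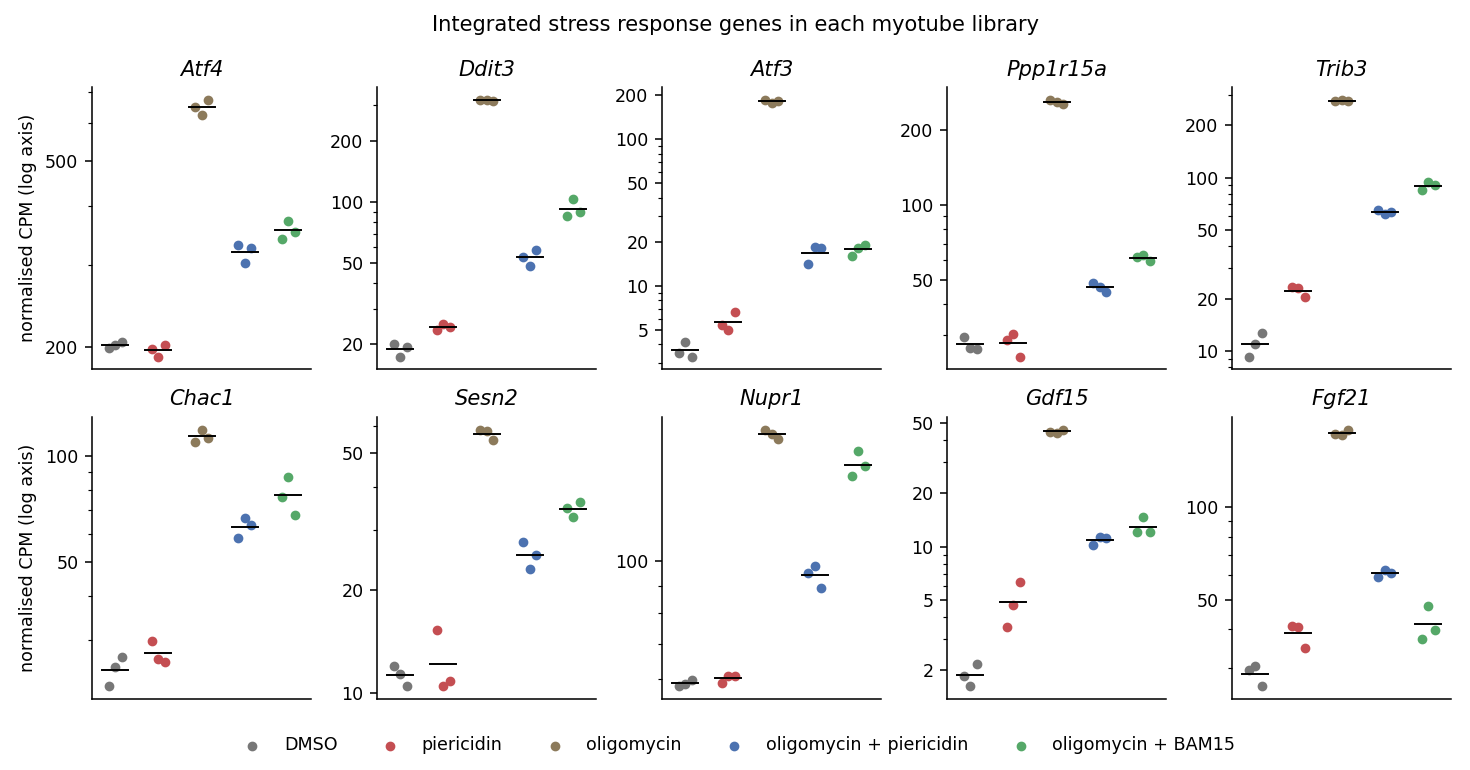
Normalised CPM (y axis, log scale, 1 panel per gene) of 10 ISR genes in each of 15 libraries; points are libraries and lines are group means of 3. In every panel the libraries with oligomycin alone lie above those with piericidin added, and Atf3 falls from 176 to 185 CPM to 14.1 to 18.3.

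Enzymes that make amino acids followed the same direction throughout. All 14 measured genes of 15 fell, with groups that did not overlap and a median log2 fold change of -0.909, and all 14 had risen with oligomycin alone (median 1.52). Asns, asparagine synthetase, was at 316, 298 and 312 CPM with oligomycin and at 172, 171 and 168 with both, against 103 ± 2.90 with DMSO (log2 fold change -0.86, SE 0.055, adjusted p = 1.76e-11, edgeR). All 7 genes of serine synthesis and one-carbon metabolism fell. Shmt2, which passes a carbon from serine to folate in mitochondria, was at 275, 289 and 287 CPM with oligomycin and at 147, 145 and 147 with both (log2 fold change -0.95, SE 0.051, adjusted p = 6.20e-13, edgeR). Aldh1l2, a mitochondrial folate enzyme, was at 106, 102 and 109 CPM and at 47.2, 49.6 and 51.4 (log2 fold change -1.10). The groups were far apart for each of these genes. Of the enzymes for other amino acids, the largest fall was that of Cth, which makes cysteine from cystathionine, from 26.7 ± 1.20 to 8.18 ± 1.55 CPM (log2 fold change -1.71, SE 0.19, adjusted p = 3.51e-07, edgeR). Aldh18a1, the first enzyme of proline synthesis, fell from 174 ± 6.89 to 76.7 ± 3.96 CPM (log2 fold change -1.18), and the smallest change was that of Gpt2, an alanine transaminase, at -0.32.

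Amino acid transporters fell at 7 of 9 measured genes of 10 (median log2 fold change -0.853). Slc3a2, the heavy chain shared by several exchangers, was at 564, 557 and 559 CPM with oligomycin and at 252, 273 and 258 with both (log2 fold change -1.10, SE 0.049, adjusted p = 1.33e-14, edgeR). Slc6a9, a glycine transporter, was at 90.6, 92.0 and 98.4 CPM and at 30.9, 28.3 and 36.7 (log2 fold change -1.55, SE 0.10, adjusted p = 2.60e-11, edgeR). Slc7a1, which imports arginine and lysine, was at 81.6, 90.0 and 80.1 CPM and at 30.7, 32.1 and 29.9 (log2 fold change -1.44). In each case every library with both inhibitors lay below every one with oligomycin alone. Slc7a11, the cystine importer, did not pass the test (log2 fold change -0.67, adjusted p = 0.0967, edgeR), nor did Slc36a4 (0.48, adjusted p = 0.229).

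Cytosolic aminoacyl-tRNA synthetases, which load amino acids onto tRNAs, fell at 17 of 20 genes, with a median log2 fold change of -0.608. Wars (tryptophan) was at 261, 261 and 253 CPM with oligomycin and at 113, 107 and 119 with both (log2 fold change -1.19, SE 0.052, adjusted p = 1.22e-14, edgeR). Rars (arginine) was at 197, 191 and 190 CPM and at 91.6, 101 and 90.8 (log2 fold change -1.03), back at the level of DMSO within the test (log2 fold change against DMSO -0.10, adjusted p = 0.320, edgeR). Neither gene's groups overlapped. Gars (glycine), whose promoter holds the letters searched, fell from 615 ± 19.3 to 333 ± 16 CPM (log2 fold change -0.88). Those of glutamine (Qars, 0.07), valine (Vars, 0.21) and histidine (Hars, -0.19) did not pass the test. With piericidin alone, none of the 20 rose against DMSO and 2 fell.

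Chaperones and proteases of mitochondria fell at 7 of 13 genes, with a median log2 fold change of -0.221. Lonp1, a protease of the matrix, was at 56.0, 51.3 and 69.0 CPM with oligomycin and at 35.3, 31.2 and 30.1 with both (log2 fold change -0.86, SE 0.12, adjusted p = 1.11e-05, edgeR). Dnaja3, a matrix co-chaperone, was at 180, 177 and 180 CPM and at 100, 107 and 117 (log2 fold change -0.73), and Hspd1, the matrix chaperonin HSP60, at 245 ± 4.35 and 178 ± 8.01 CPM (log2 fold change -0.46). The libraries with both inhibitors lay below the others in each of these. Clpx, Yme1l1, Oma1 and Spg7, which encode further proteases or their partners, were between -0.15 and -0.05 and did not pass. Chaperones and degradation factors of the endoplasmic reticulum moved in both directions, with 4 of 19 lower and 3 higher (median 0.0396). Among all genes tested 12.4% fell and 8.46% rose, which stands beside the counts of heat-shock and NRF2 genes below as well. Herpud1, a degradation factor also driven by ATF4, fell from 366 ± 7.81 to 243 ± 7.19 CPM (log2 fold change -0.59). Hspa5, the luminal chaperone BiP, was at 844, 771 and 791 CPM with oligomycin and at 594, 600 and 575 with both (log2 fold change -0.44, SE 0.038, adjusted p = 3.18e-09, edgeR). DMSO libraries were at 797 ± 16.9 CPM of Hspa5, so its level with both inhibitors was below that of DMSO too (log2 fold change -0.43, adjusted p = 9.44e-09, edgeR). Manf, a secreted factor of the same compartment, was at 45.6, 39.5 and 39.7 CPM and rose to 52.5, 52.9 and 53.5 (log2 fold change 0.35, SE 0.069, adjusted p = 0.000586, edgeR). Cytosolic heat-shock genes gave 3 higher and 2 lower of 10, with 5 higher without the first oligomycin library, 1 higher with no filter on counts, and 1 lower under 6 of 12 alternatives. Hspa8, the constitutive HSC70, rose from 757 ± 14.9 to 984 ± 16.6 CPM (log2 fold change 0.38). Targets of NRF2, the factor of the oxidant response, gave 2 higher and 2 lower of 12, with 1 higher with outer or inner well in the model and 1 lower without the second oligomycin library. Among them Hmox1, heme oxygenase, fell from 72.3 ± 2.60 to 42.1 ± 2.38 CPM (log2 fold change -0.78).

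**Figure D3:**
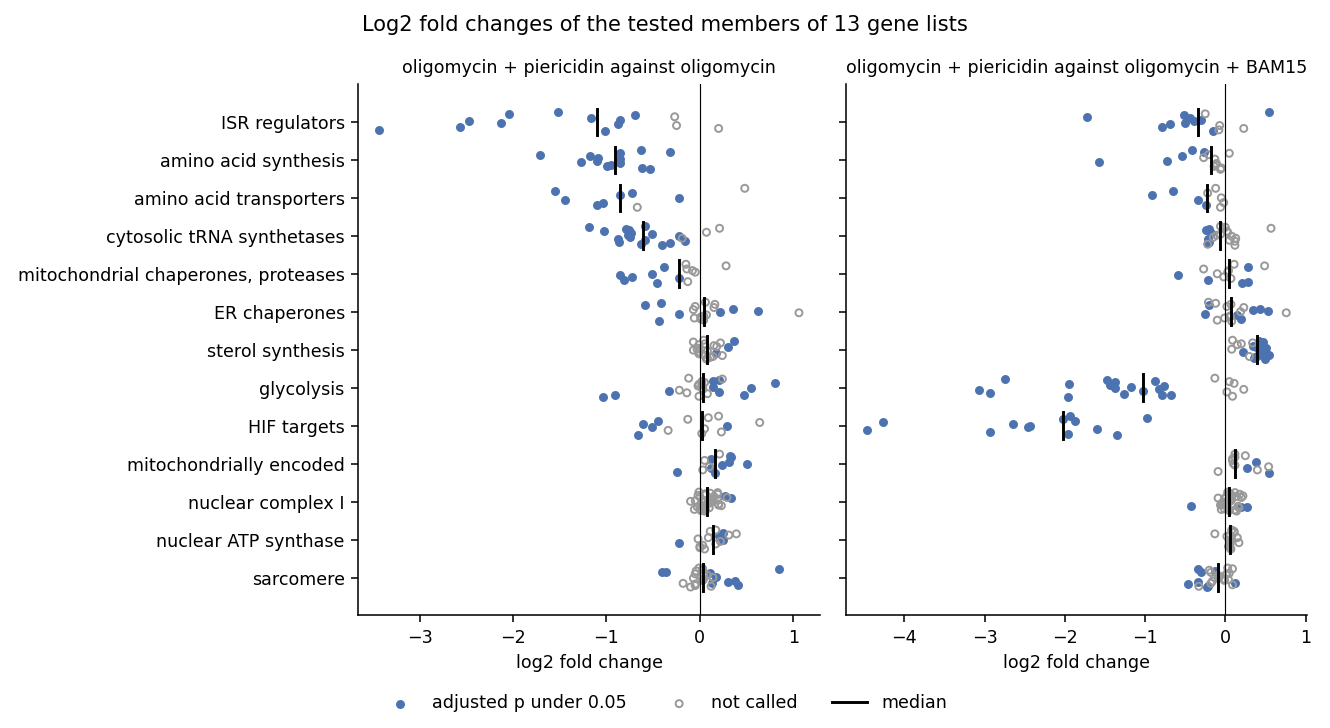
Log2 fold changes (x axis) of the tested members of 13 gene lists (rows) for piericidin added to oligomycin (left) and for piericidin against BAM15 on top of oligomycin (right); each point is a gene, filled where the adjusted p was under 0.05, and black bars are medians. The 4 lists at the top have medians between -1.1 and -0.608 on the left, and HIF targets have the lowest median, -2.02, on the right.

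Outside these lists, the genes with the largest falls included several with low expression in DMSO. Car6, a secreted carbonic anhydrase, was at 22.5, 19.0 and 21.1 CPM with oligomycin and at 1.40, 0.973 and 1.51 with both. It had 0 to 3 counts per DMSO library and 10 to 16 with both inhibitors, and passed the count filter through 3 of 9 groups, of which oligomycin is the only one in this comparison. Avil, advillin, an actin-binding protein, passed it through oligomycin alone, at 10.3, 10.0 and 10.1 CPM, against 1.23, 1.17 and 0.753 with both. Both genes are given as values with no test, because in this comparison the filter kept them through the group where they are high. Ptgs2 (COX-2), which makes prostaglandin precursors, rested on higher counts, at 97.9, 77.4 and 82.6 CPM with oligomycin and 11.5, 9.93 and 12.6 with both (log2 fold change -2.92, SE 0.12, adjusted p = 2.27e-15, edgeR). Its level with both was near that of DMSO, 9.36 ± 0.651 CPM, with 2.58% ± 1.76 of the rise left. Cdsn, corneodesmosin, an adhesion protein best known from skin, was at 85.4, 94.7 and 94.3 CPM and at 14.3, 12.8 and 12.8 (log2 fold change -2.78). Others taken by the same rule were Acox2, an enzyme of peroxisomal oxidation (-3.06), Rad54b, a DNA repair helicase (-2.96), B3gnt5, a glycosyltransferase (-2.73), and Serpinb9g, a protease inhibitor (-2.63). None of these exceeded 32.1 CPM in any library of either group. In all of these the groups did not overlap, as the rule for naming required.

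The 10 genes with the largest rises by the naming rule were led by Asb2. Asb2, a ubiquitin ligase subunit of muscle, was at 3.25, 2.48 and 2.00 CPM with oligomycin and at 24.3, 32.0 and 29.0 with both (log2 fold change 3.45, SE 0.16, adjusted p = 1.72e-14, edgeR), an 11-fold higher level. DMSO libraries were at 15.2 ± 0.214 CPM and those with piericidin alone at 46.6 ± 4.08, so the level with both lay between these groups. Smim5, a small membrane protein, was at 1.95, 1.71 and 1.81 CPM and rose to 14.3, 16.7 and 15.8, below DMSO at 25.6 ± 1.04 (log2 fold change 3.09, SE 0.17, adjusted p = 9.91e-13, edgeR). Fst, follistatin, a secreted antagonist of myostatin and activins, was at 10.0, 12.2 and 9.44 CPM and rose to 57.1, 49.8 and 46.6 (log2 fold change 2.27, SE 0.17, adjusted p = 2.72e-10, edgeR). It stood about midway to DMSO, where 51.1% ± 6.47 of the change made by oligomycin was left. Art1, a muscle ADP-ribosyltransferase, was at 17.2, 18.4 and 18.7 CPM and at 75.8, 83.8 and 94.4, close to DMSO at 92.0 ± 3.32 (log2 fold change 2.22, SE 0.080, adjusted p = 3.90e-16, edgeR). Art5 (log2 fold change 1.60) overlaps Art1 in the annotation, and reads of the pair may have been shared between them. Cers1, a ceramide synthase (1.99), Myh7b, a slow-type myosin heavy chain (1.83), and Lrrn1, a leucine-rich repeat membrane protein (1.75), rose as well. Scml4, a polycomb-group gene (1.58), stayed far from DMSO, at 10.1 ± 1.25 CPM with both against 54.7 ± 2.50 with DMSO and 16.2 ± 2.08 with piericidin alone.

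**Figure D4:**
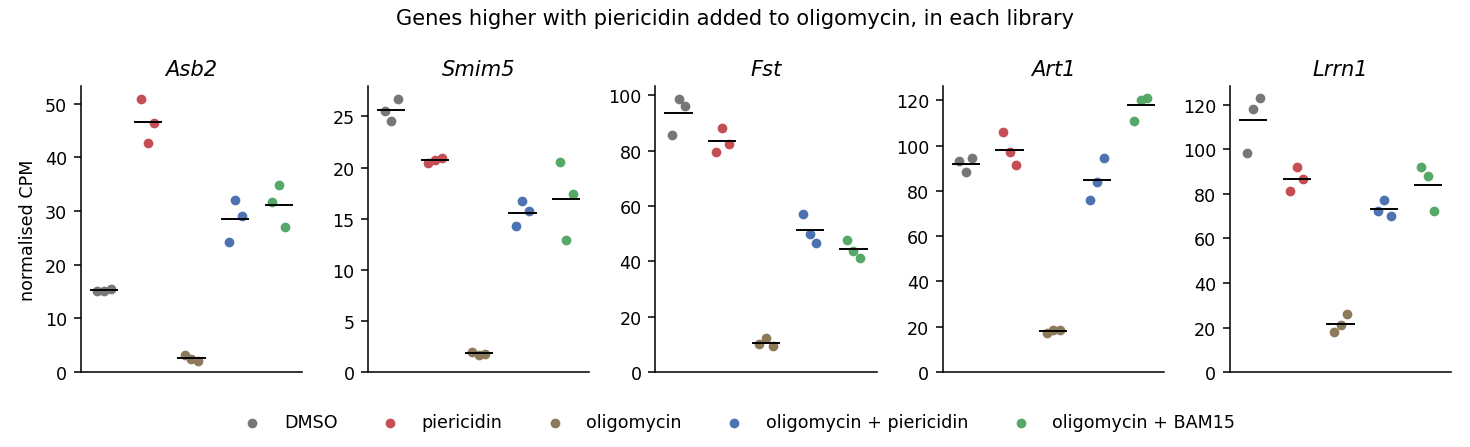
Normalised CPM (y axis, linear from 0, 1 panel per gene) of 5 genes raised by piericidin on top of oligomycin, in each of 15 libraries; points are libraries and lines are group means of 3. Oligomycin alone gives the lowest libraries in every panel, and Asb2 rises from 2.00 to 3.25 CPM to 24.3 to 32.0.

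Among 10 muscle regulatory genes 5 fell and 2 rose, and 3 fell with only the groups compared. Myog (chr1:134289989-134292548), the factor that drives terminal differentiation, was at 1820, 1840 and 1820 CPM with oligomycin and at 765, 723 and 717 with both (log2 fold change -1.31, SE 0.040, adjusted p = 1.39e-17, edgeR). The level with both matched DMSO, at 745 ± 40.8 CPM, within the test (log2 fold change -0.02, adjusted p = 0.803, edgeR). Myf5, a factor of myoblasts, was at 26.7, 26.1 and 21.6 CPM and at 11.9, 12.8 and 11.7 (log2 fold change -1.04, SE 0.12, adjusted p = 3.51e-07, edgeR). Both groups stood well apart for Myog and Myf5. Mef2d, a partner of the myogenic factors, rose from 42.7 ± 0.955 to 55.6 ± 1.89 CPM (log2 fold change 0.38). Of 27 sarcomere genes 7 rose and 2 fell (median 0.0306). Tcap, a cap protein of titin, was at 29.5, 28.1 and 29.6 CPM and rose to 48.9, 55.7 and 53.1 (log2 fold change 0.85, SE 0.087, adjusted p = 5.53e-08, edgeR). Ttn, titin itself, was at 755, 823 and 842 CPM and fell to 698, 537 and 580 (log2 fold change -0.41, SE 0.064, adjusted p = 2.80e-05, edgeR), and Neb, nebulin, fell by 0.36 on the log2 scale. Cav3, the muscle caveolin, rose from 50.2 ± 3.81 to 84.9 ± 6.35 CPM (log2 fold change 0.76). Of the myotube markers counted above 5 rose and 2 fell, and none of those of dividing cells passed the test. Of those of undifferentiated cells 3 rose and 2 fell, with 1 rise when replicate 1 of both inhibitors or replicate 2 of oligomycin was left out. Of 6 measured genes of muscle atrophy 1 rose, Fbxo30, a ubiquitin ligase (log2 fold change 0.34, adjusted p = 0.0189, edgeR), and none rose when replicate 1 of both inhibitors or replicate 2 of oligomycin was left out or with outer or inner well in the model.

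Of the 13 protein-coding genes of mitochondrial DNA 8 rose and 1 fell, with a median log2 fold change of 0.157. The count of rises was 4 without the first library with both inhibitors, without the second of them, or without the third oligomycin library, and 5 with outer or inner well in the model. mt-Cytb, cytochrome b of complex III, was at 784, 810 and 786 CPM with oligomycin and at 1010, 974 and 964 with both (log2 fold change 0.31, SE 0.040, adjusted p = 2.86e-06, edgeR). mt-Co3, a subunit of complex IV, was at 1230, 1150 and 1300 CPM and at 1580, 1520 and 1540 (log2 fold change 0.33, SE 0.066, adjusted p = 0.000577, edgeR). mt-Nd2, a subunit of complex I, was the one that fell, from 143 ± 9.92 to 121 ± 1.92 CPM (log2 fold change -0.24), a call lost without the second oligomycin library or with outer or inner well in the model. Mitochondrial transcripts come from long shared precursors of both strands and the libraries did not keep the strand, so reads of overlapping genes such as mt-Nd5 and mt-Nd6 cannot be fully separated. Of 36 nuclear genes for complex I 2 rose and none fell (median 0.0758), while 8.46% of all genes tested rose and 12.4% fell. The 2 were Ndufb3 (log2 fold change 0.33, adjusted p = 0.0180) and Ndufb7 (0.27, adjusted p = 0.0132, edgeR), and the count ran from 0 without the second oligomycin library to 5 without the third. Of 16 for ATP synthase 3 rose and 1 fell (median 0.139), with 0 falls without the first or without the third oligomycin library and 1 rise when replicate 2 of oligomycin, or replicate 2 or 3 of both inhibitors, was left out. Of 8 genes of mitochondrial biogenesis 2 rose and 2 fell. Tfam, which packages mitochondrial DNA, was at 48.6, 52.9 and 48.5 CPM with oligomycin and at 34.0, 33.0 and 32.4 with both (log2 fold change -0.59, SE 0.082, adjusted p = 6.24e-06, edgeR), and Tfb2m, a mitochondrial transcription factor, fell from 64.0 ± 5.79 to 43.2 ± 1.88 (log2 fold change -0.57). The 2 that rose were Ppargc1a, the gene of the coactivator PGC-1α (1.09, adjusted p = 0.0117), and Gabpa (0.27, adjusted p = 0.0482, edgeR), and under 9 of 12 alternatives only 1 or 0 of the list rose.

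Genes of glycolysis split, with 7 of 23 higher and 3 lower (median 0.0306). Slc2a1, the glucose importer GLUT1, was at 63.2, 63.6 and 62.0 CPM with oligomycin and at 33.4, 26.3 and 32.2 with both (log2 fold change -1.04, SE 0.096, adjusted p = 1.24e-08, edgeR). Hk2, hexokinase 2, was at 181, 165 and 176 CPM and at 93.1, 86.3 and 97.3 (log2 fold change -0.91, SE 0.087, adjusted p = 2.05e-08, edgeR). Hk1, another hexokinase, moved the opposite way, from 44.7 ± 1.93 to 61.9 ± 2.72 CPM (log2 fold change 0.47), as did Pgam2, the muscle phosphoglycerate mutase, from 54.7 ± 4.93 to 94.9 ± 3.31 CPM (log2 fold change 0.80). The groups did not overlap for any of these genes. Of 13 targets of the hypoxia-inducible factors (HIF) 4 fell and 1 rose (median 0.0235), and the rise was lost when replicate 2 of oligomycin, or replicate 2 or 3 of both inhibitors, was left out. Ndrg1, a stress-responsive gene, was at 204, 187 and 190 CPM and at 116, 137 and 126 (log2 fold change -0.61, SE 0.068, adjusted p = 2.29e-07, edgeR), and Egln3, a HIF prolyl hydroxylase, at 81.3, 81.2 and 73.6 and at 52.4, 58.4 and 55.5 (log2 fold change -0.51, SE 0.071, adjusted p = 7.15e-06, edgeR). Against DMSO, 9 of these 13 were lower with both inhibitors, 9 with oligomycin alone and 9 with piericidin alone. For sterol synthesis 3 of 22 rose and none fell (median 0.0745), among them Insig1, a sterol sensor (log2 fold change 0.37), and Nsdhl, a sterol dehydrogenase (0.30). Among all genes tested 8.46% rose and 12.4% fell. Txnip, a target of the glucose-sensing factor MondoA, did not pass the test (log2 fold change -0.14).

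Piericidin blocks the entry of electrons from NADH at complex I, and BAM15 lets pumped protons leak back, so the samples with either addition to oligomycin were compared directly. They differed at 1116 of 12491 genes (8.93%), with 723 lower with piericidin (5.79%) and 393 higher (3.15%). ISR genes were at similar but mostly lower levels with piericidin, with 9 of 14 lower and 1 higher and a median log2 fold change of -0.345. Atf4 was at 320 ± 14.4 CPM with piericidin and 355 ± 15.5 with BAM15 (log2 fold change -0.15, adjusted p = 0.0354, edgeR), and Ddit3 at 53.5 ± 4.83 and 92.7 ± 9.62 (log2 fold change -0.79, adjusted p = 2.20e-08, edgeR). Atf3 was at 16.9 ± 2.39 and 17.8 ± 1.57 CPM and did not pass the test (log2 fold change -0.08, SE 0.14, adjusted p = 0.820, edgeR). Fgf21 was the exception among the ISR genes and was higher with piericidin, at 60.9 ± 1.65 against 41.6 ± 5.34 CPM (log2 fold change 0.55, adjusted p = 4.52e-05, edgeR). Of the enzymes of amino acid synthesis 5 of 14 were lower. The largest of these differences was in Mthfd1l, a mitochondrial folate enzyme, at 24.2, 23.6 and 22.3 CPM with piericidin and 71.6, 70.3 and 68.3 with BAM15 (log2 fold change -1.58, SE 0.095, adjusted p = 3.56e-12, edgeR). With oligomycin alone Mthfd1l was at 56.5 ± 3.20 CPM. Of the tRNA synthetases 6 of 20 were lower, and 2 without replicate 2 and 3 without replicate 3 of the libraries with BAM15.

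Glycolysis and HIF targets set the additions far apart. All 13 HIF targets were lower with piericidin than with BAM15 (median log2 fold change -2.02), and 17 of 23 genes of glycolysis were lower (median -1.02), with 0 higher in either list. Ak4, a mitochondrial adenylate kinase, was at 1.58, 1.65 and 1.98 CPM with piericidin and at 53, 39.8 and 49.6 with BAM15, which is a log2 difference of -4.76 with an SE of 0.26 (adjusted p = 6.46e-13, edgeR). Ankrd37 and Adm, adrenomedullin, which are on the HIF list, were far lower with piericidin too. So were Gpr35, a receptor, and Apln, the peptide apelin. In that order they held 11 to 21, 13 to 15, 6 to 17 and 5 to 16 counts per library with oligomycin and piericidin. In this comparison the count filter kept them through the group with BAM15, where they are high, so no test or size is given. Ankrd37 and Adm are among the 13 HIF targets counted above. In DMSO these genes lay between both groups, with Ak4 at 11.8 ± 3.15 CPM. Pfkl, the liver-type phosphofructokinase, was at 39.9, 45.3 and 44.2 CPM with piericidin and at 323, 330 and 332 with BAM15 (log2 fold change -2.93, SE 0.081, adjusted p = 7.49e-19, edgeR). Ldha, lactate dehydrogenase A, was at 683 ± 20.6 and 1890 ± 34.6 CPM (log2 fold change -1.47). Oligomycin alone gave levels near those with piericidin, at 47.6 ± 3.99 CPM for Pfkl and 593 ± 14.9 for Ldha. In contrast, 16 of 22 genes of sterol synthesis were higher with piericidin than with BAM15 and none lower (median 0.389). The genes with the largest higher values were Dtl (1.08), Mest (1.07), Tedc1 (1.01), Insc (0.94) and Mcm5 (0.92). In each the libraries with piericidin were on average above those with BAM15. Dtl and Mcm5 act in DNA replication, and of the 8 markers of dividing cells 1 was lower and 0 were higher in the same comparison.

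**Figure D5:**
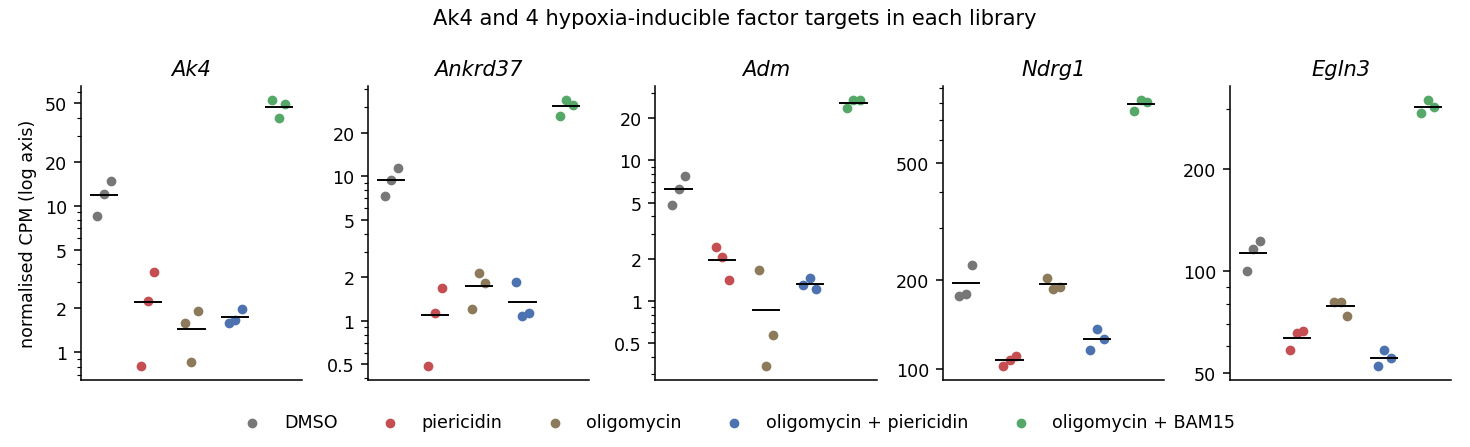
Normalised CPM (y axis, log scale, 1 panel per gene) of Ak4 and of 4 HIF targets in each of 15 libraries; points are libraries and lines are group means of 3. The libraries with oligomycin and BAM15 are highest in every panel, and Ak4 is at 39.8 to 53 CPM there against 1.58 to 1.98 with oligomycin and piericidin.

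Immediate early genes, the first to respond to growth signals, fell at 4 of 11 measured and rose at 3. Myc, a growth-promoting transcription factor, was at 79.7, 77.8 and 75.3 CPM with oligomycin and at 25.4, 28.9 and 29.2 with both (log2 fold change -1.48, SE 0.087, adjusted p = 3.29e-12, edgeR), near DMSO at 23.2 ± 2.01. Egr3 was at 6.32, 5.91 and 4.86 CPM and rose to 7.88, 12.4 and 11.1 (log2 fold change 0.87, SE 0.17, adjusted p = 0.000412, edgeR), and Jun rose with a log2 fold change of 0.34. Feedback genes of the MAP kinase pathway gave 3 higher and 3 lower of 9, with Dusp8, Dusp4 and Dusp6, which encode phosphatases, lower by log2 fold changes of -0.95, -0.64 and -0.47. The count of higher genes was 1 when replicate 2 of oligomycin, or replicate 2 or 3 of both inhibitors, was left out. Targets of p53 gave 4 higher and 4 lower of 10. Aen, a nuclease, fell from 134 to 80.3 CPM (log2 fold change -0.74, SE 0.050, adjusted p = 3.63e-11, edgeR), while Sesn1, a sestrin, rose with a log2 fold change of 0.44. Mt1, a metal-binding metallothionein, was at 142, 109 and 149 CPM and at 177, 182 and 181 (log2 fold change 0.43, adjusted p = 0.0171, edgeR), and its close copy Mt2 did not pass the test (log2 fold change -0.02). The call of Mt1 was lost without the second oligomycin library.

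Whether the effect of piericidin depended on oligomycin was tested as an interaction, the log2 fold change made by piericidin on top of oligomycin minus that on top of DMSO. It was called at 1820 genes (14.6%), with 1095 negative (8.77%) and 725 positive (5.8%). For the ISR list 12 of 14 were negative and none positive, and all 14 measured enzymes of amino acid synthesis were negative. Piericidin alone raised 6 of 14 ISR genes and lowered none, raised 6 of 14 enzymes of amino acid synthesis and lowered 1, and raised none of the tRNA synthetases and lowered 2. Atf4 was at 197 ± 5.21 CPM with piericidin alone and did not differ from DMSO in the test (log2 fold change -0.04, adjusted p = 0.741, edgeR), and its interaction was -0.99 (SE 0.065, adjusted p = 4.35e-11, edgeR). Ddit3 rose with piericidin alone by a log2 fold change of 0.36 (adjusted p = 0.00887, edgeR), and its interaction was -2.92 (SE 0.11, adjusted p = 1.07e-14, edgeR). HIF targets were positive at 8 of 13 and negative at none, genes of glycolysis positive at 16 of 23 and negative at 3, and genes of sterol synthesis positive at 13 of 22 and negative at none. Each inhibitor given singly had lowered 9 of the 13 HIF targets and 16 of the 23 genes of glycolysis against DMSO.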

How the data were processed

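RNA-seq of 27 untransduced myotube samples (9 groups of 3, from the sample labels) was analysed. The authors made Smart-seq2 libraries without strand information, sequenced paired reads of 37 bp on 2 flow cells, and quantified them with kallisto 0.44 (bias correction, ENSEMBL 93, GRCm38.p6, plus transgenes). The deposited table holds the authors' estimated counts per gene (expected counts, not normalised) for 54146 genes and 4 transgenes, which were rounded to whole numbers. A gene was tested if all replicates of some group had 16 counts or more (12491 genes), in 1 model with edgeR 4.0.16 (quasi-likelihood F test, TMM, Benjamini-Hochberg adjustment over all genes tested, threshold 0.05) in R 4.3.3. CPM was computed after TMM scaling, and values are means ± SD, n = 3, or single libraries. The authors used DESeq2's Wald test, run here as an alternative (DESeq2 1.42.0). PCA used rlog values of 12115 genes. Library depth was 6458295 to 13759512 counts. Of 27 replicate pairs, 0 were identical.

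The members and gene lists (24 lists and 5 marker lists with 360 genes, 340 tested) were chosen with earlier results of these data known. The rule for naming took the ISR list; for the main comparison, at most 10 called genes in each direction by size of change (mean count 50 or more, separate groups, no predicted-gene name); at most 4 per list by p, and members given as not passing; and at most 5 in each direction for the interaction and for BAM15. Not all of these are named, and other list members that are named were picked after their values were seen. On simulated counts of 12191 genes, the main comparison recovered 46 of 67 genes changed 1.5-fold, 63 of 67 changed 2-fold and 64 of 66 changed 4-fold, with 8 false calls. The changed genes were drawn from those with a mean above 5 CPM, and no other genes or groups differed. Recovery at lower expression, or with as many changed genes as in the data, was not simulated. Alternatives were DESeq2 size factors, no count filter, DESeq2, a replicate block, only the groups compared, outer or inner well (as read from label codes whose meaning is not given), and leaving out each replicate. Promoters are from RefSeq GRCm38.p6 and gene coordinates from GENCODE M21 (GRCm38). Samples of other cell states or with transgenes were not used.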

Additional observations from a re-analysis of the deposited data

Results flagged for a closer look

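The effect of piericidin differed with and without oligomycin, in the test of the difference itself, at 1820 of 12491 genes tested with edgeR (14.6%). The genes with the largest negative interactions were raised by oligomycin and lowered by adding piericidin. Car6 had a fitted interaction of -5.59 on the log2 scale, which is no estimate of size, since it rests on 0 to 3 counts per DMSO library and 2 to 8 with piericidin alone. Atf3 (-4.08) went from 3.65 to 5.69 CPM when piericidin was given alone and from 181 to 16.9 CPM when it was added to oligomycin. Cdsn (-3.48) went from 2.81 to 4.54 and from 91.5 to 13.3 CPM, Gdf15 (-3.44) from 1.88 to 4.86 and from 44.9 to 10.9 CPM, and Rad54b (-3.38) from 1.63 to 2.13 and from 25.7 to 3.28 CPM.

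The genes with the largest positive interactions were lowered by oligomycin. Smim5 (3.40) went from 25.6 to 20.7 CPM with piericidin alone and from 1.83 to 15.6 on top of oligomycin, and Fst (2.44) from 93.6 to 83.4 and from 10.6 to 51.2 CPM. Scml4 (3.34), Fam167a (2.36) and E2f2 (2.34) were instead low with either inhibitor. Fam167a was at 86.8 ± 1.71 CPM with DMSO (SD, n = 3), 23.3 ± 3.82 with piericidin, 18.0 ± 3.48 with oligomycin and 25 ± 1.70 with both. E2f2, a cell cycle transcription factor, was at 86.1 ± 7.89, 25.1 ± 2.87, 17.2 ± 1.5 and 25.5 ± 0.404 CPM in the same order. With 3 samples in each group, no group was tested for outlying samples.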

How the results depend on the processing

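The count of genes changed by adding piericidin to oligomycin was 2609 with DESeq2 size factors, 2360 of 44285 genes with no filter, 2521 with DESeq2, 2118 with outer or inner well in the model, 2024 with only the groups compared, and 2058 to 2415 without 1 replicate. Without 1 replicate the counts were 1598 to 1732 for the interaction, 830 to 960 against BAM15, 1200 to 1317 for both inhibitors against DMSO, 3510 to 3899 for oligomycin and 814 to 919 for piericidin against DMSO. All these totals stayed within 1.5 times those reported. Against BAM15 the total was 817 with only the groups compared, and the count of higher genes, 393 as reported, was 241. Correlations of deviations were -0.127 to 0.169 over 3 pairs of same-numbered samples of the groups compared, and -0.217 to 0.236 over 6 pairs of different number. So few pairs cannot show whether same-numbered samples belong together, and the numbers were not treated as pairs. With the replicate number as a block the count was 2538. The position on PC1 ran from 29.0% to 38.0% without 1 replicate, and was 38.0% without the first oligomycin replicate. Of 1860 values of named genes under alternatives, 1785 kept their side of the threshold, 69 lost the call and 6 gained it. Where a value was called in the main fit or the alternative, 0 reversed direction. Values called in neither were not checked for direction. Counts of the ISR list (11), amino acid synthesis (14) and transporters (7) were the same under all 12 alternatives. Some lists with few calls moved more: the genes that rose were 0 to 2 for HIF targets, 0 to 2 for atrophy, 0 to 1 for metallothioneins, 1 to 2 for NRF2 targets, 1 to 5 for heat-shock genes and 1 to 3 for markers of undifferentiated cells, and the genes that fell were 3 to 5 for muscle regulatory genes, 1 to 2 for markers of undifferentiated cells and 0 to 1 for genes of mitochondrial DNA and of ATP synthase. Depth limits genes of few counts, such as Car6 and Avil, whose levels with DMSO cannot be told from 0.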

Other observations

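At 74 of 12491 genes the libraries with both inhibitors lay above all 9 libraries with DMSO, piericidin alone or oligomycin alone. At 103 genes they lay below all 9. Among these, 12 of the genes above and 44 of those below were also called in edgeR against both DMSO and oligomycin. They are given as a description, since the number of genes lying outside was not tested. The genes named here were chosen after their values were seen, so their p-values against DMSO and oligomycin are no separate support. Pik3ip1, an inhibitor of PI3 kinase, was at 31.7 ± 2.73 CPM with DMSO (SD, n = 3), 47.4 ± 1.43 with piericidin, 39.5 ± 0.633 with oligomycin and 52.9 ± 1.48 with both. Its log2 fold change with both was 0.42 against oligomycin (adjusted p = 0.000195) and 0.74 against DMSO (adjusted p = 1.95e-07, edgeR). Trp53inp1, a stress-induced nuclear protein, and Ghr, the growth hormone receptor, were likewise highest of these 4 groups with both, at 30.7 ± 1.74 and 106 ± 4.22 CPM. With oligomycin and BAM15, Pik3ip1 was at 60.2 ± 7.20 CPM, Trp53inp1 at 26.9 ± 2.31 and Ghr at 109 ± 9.96, and none of these differences from both inhibitors passed the test (adjusted p = 0.132, 0.365 and 0.892, edgeR).

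Among the genes lowest with both, Xirp1, an actin-binding protein of striated muscle, was at 135 ± 6.95 CPM with DMSO, 94.5 ± 8.14 with piericidin, 157 ± 9.24 with oligomycin and 83.0 ± 6.52 with both. Its log2 fold change was -0.92 against oligomycin (adjusted p = 1.62e-09) and -0.70 against DMSO (adjusted p = 3.19e-07, edgeR). With oligomycin and BAM15 it was at 83.1 ± 5.28 CPM, a log2 fold change of -0.00 (adjusted p = 0.989, edgeR). Prkg2, a cGMP-dependent kinase, was at 86.2 ± 6.73, 60.6 ± 1.42, 81.3 ± 10.5 and 51.0 ± 3.43 CPM in the order of the 4 groups above. With oligomycin and BAM15 Prkg2 was at 76.5 ± 9.32 CPM, and the level with both inhibitors was lower (log2 fold change -0.59, adjusted p = 9.92e-05, edgeR). Lif, a secreted cytokine of muscle among other tissues, was at 8.09 ± 1.73, 6.01 ± 0.722, 5.91 ± 0.565 and 3.62 ± 0.476 CPM. With oligomycin and BAM15 Lif was at 5.58 ± 1.2 CPM, which did not pass the test (log2 fold change -0.63, adjusted p = 0.115, edgeR).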
